A study of Mus musculus with 96 samples.

Results

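Interferon-stimulated genes were examined as 42 members chosen by gene name, and all 42 were among the 22709 genes of a mouse brain expression table. RNA was sequenced from hippocampus and prefrontal cortex of mice of a maternal immune activation (MIA) or a saline group, crossed with PLX5622 (PLX), which inhibits the growth factor receptor CSF1R that microglia depend on, or control, and with sex. Each tissue had 6 libraries of MIA PLX females, of MIA PLX males, of saline PLX females, of saline PLX males, of saline control females and of saline control males, beside 7 of MIA control females and 5 of MIA control males. That makes 48 libraries per tissue and 96 in all. The strain, the age, the agent of immune activation, the dose and timing of the inhibitor and the litter of each animal are not given in the sources used here. Litters could not be modelled, so p-values for MIA treat libraries as independent, and every p-value measures the spread between the libraries of a group.

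Type I interferons bind a receptor whose kinases, JAK1 and TYK2, phosphorylate signal transducers such as STAT2. STAT2 and IRF9 belong to the complex ISGF3, which binds the interferon-stimulated response element in front of its target genes. The targets encode proteins that block viral RNA and virus entry, sensors of foreign nucleic acid, and regulators that raise or restrain the response, and brain cells keep them at a low level without infection.

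Promoter sequence is shown for 6 members because it carries the element that names the group. The sequences are RefSeq promoter windows of build GRCm38.p6, and 31 of the 42 members had an entry. The response element was searched as GAAA, any 2 bases and GAAA again, on both strands, overlapping matches counted, which need not find every variant of it. It was present for 16 of these 31 members (51.6%), against 3.99% of 27025 genes. The STAT motif TTCNNNGAA was present for 8 of 31 (25.8%), against 9.55% of genes. Each stretch below holds the matches of that gene's window in capitals with flanking bases in lower case, 5′ to 3′ on the gene's strand, and TTTC is the element read from the opposite strand.
Isg15: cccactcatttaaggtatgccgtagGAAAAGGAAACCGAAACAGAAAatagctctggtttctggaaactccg
Ifit1: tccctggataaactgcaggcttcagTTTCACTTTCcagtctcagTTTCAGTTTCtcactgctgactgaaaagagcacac
Ifit3: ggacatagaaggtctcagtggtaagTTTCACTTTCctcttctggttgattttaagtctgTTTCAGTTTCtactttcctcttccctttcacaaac
Gbp3: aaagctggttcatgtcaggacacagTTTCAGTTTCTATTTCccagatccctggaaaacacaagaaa
Bst2: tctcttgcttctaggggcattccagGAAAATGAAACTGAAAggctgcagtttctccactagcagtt
Stat2: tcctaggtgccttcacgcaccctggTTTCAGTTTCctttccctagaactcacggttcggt
They lie at chr4:156200850-156200921 (minus strand) for Isg15, chr19:34640760-34640838 (plus strand) for Ifit1, chr19:34583348-34583441 (plus strand) for Ifit3, chr3:142559974-142560039 (plus strand) for Gbp3, chr8:71537562-71537627 (minus strand) for Bst2 and chr10:128270251-128270310 (plus strand) for Stat2. Isg15, the ubiquitin-like modifier, had 3 overlapping matches, Ifit1, Ifit3, Gbp3 and Bst2 had 2 each, and Stat2 had 1. The stretch in front of Ifit3b was identical to that of Ifit3 over all 94 bases. A match describes the letters in a window and is not evidence of binding. The submitters' processing notes name GRCm39 for the expression values, and no position of one build was carried to the other.

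Some members are neighbours and share sequence, which limits how their reads can be told apart. In the GRCm38 annotation Ifit1, Ifit2, Ifit3 and Ifit3b lie close together on chromosome 19. On chromosome 16 Parp9, Parp14 and Dtx3l lie together, Mx1 and Mx2 lie together at a distant place, and Rtp4 lies apart from both. Of the short stretches of its transcript, Ifit3 had 51.2% in common with Ifit3b, and Oas1a had 57.6% in common with Oas1g. Exons of Parp9 and Dtx3l overlap on opposite strands. The sources used here do not say how shared reads were counted or whether counting used strand, so values of these genes are uncertain to that extent.

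Values are normalized signal, a gene's read count divided by a library factor, with no scaling to gene length, so levels are compared within a gene only. Reads recovered from these values ran between 22234569 and 26689351 per hippocampal library and between 22752437 and 25928320 per cortical library. Of the tissue markers, 6 of 6 hippocampal genes were higher and 5 of 7 neocortical genes lower in the libraries labelled hippocampus. Libraries stood apart by the share of signal held by ribosomal protein and respiratory chain genes. In hippocampus 14 libraries, 12 control and 2 PLX, had a share of 1.22 to 1.40%, and the other 34 had 0.874 to 1.08%. In prefrontal cortex 16 libraries, 14 control and 2 PLX, had 1.14 to 1.36%, and the other 32 had 0.839 to 1.04%. Because these high-share libraries were nearly all control libraries, PLX results are also given with a covariate that marks them.

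A signal of 10 in at least 5 libraries of a tissue was required for testing, and 39 members passed in hippocampus and 40 in prefrontal cortex. Oas3, an RNA-activated synthetase, and Zbp1, a sensor of Z-form nucleic acid, missed it in both tissues, and Mx1, an antiviral GTPase, missed it in hippocampus. In the fit of both tissues together 41 members were tested, all but Oas3. Over the 48 hippocampal libraries Ifit3, which stabilises IFIT1 on viral RNA, ran between 87.9 and 452, and Stat2, the signal transducer, between 459.9 and 883. In prefrontal cortex the same genes ran between 143 and 419 and between 508 and 777. Medians of the member mean, on the log2 scale, ran between 6.45 in MIA control males and 6.66 in MIA PLX females over the 8 hippocampal groups and between 6.56 in MIA control males and 6.77 in MIA control females over the 8 cortical groups.

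**Figure D1:**
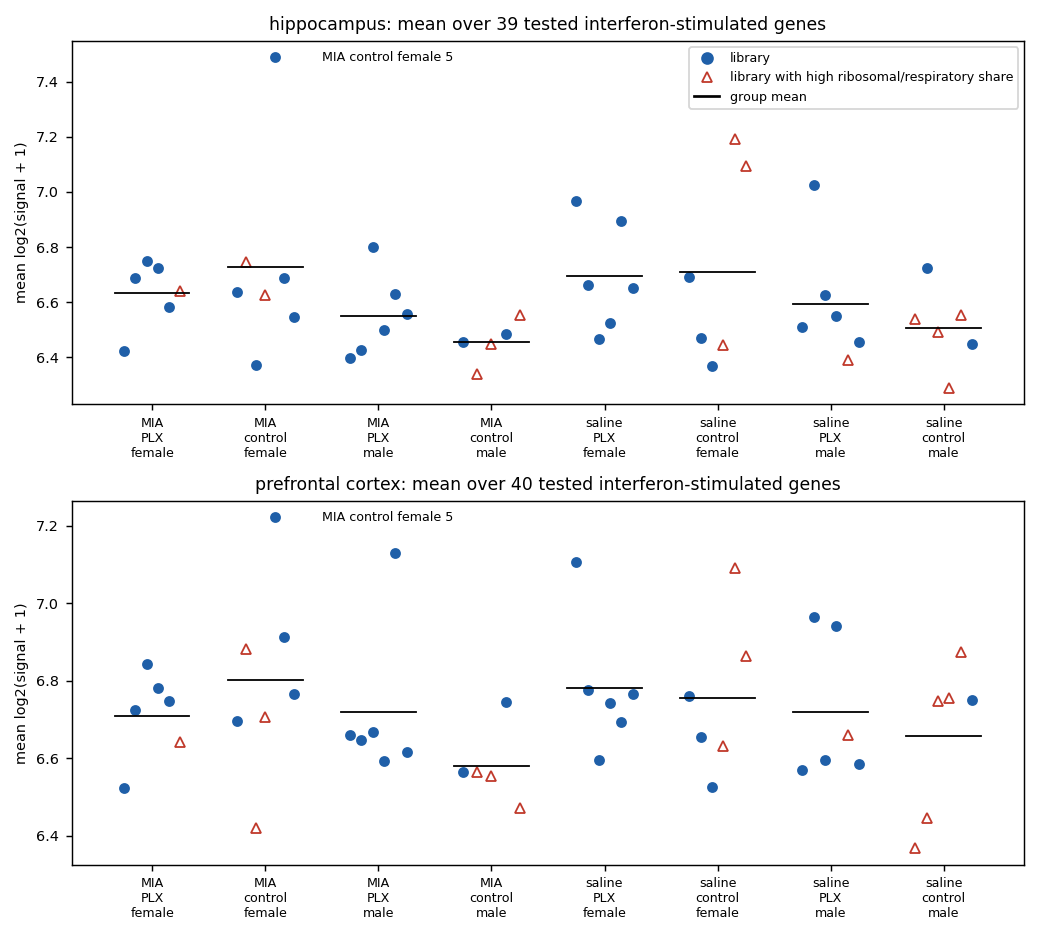
Mean log2(signal + 1) over the tested interferon-stimulated genes in each library, by group, in hippocampus (39 genes) and prefrontal cortex (40 genes); points are libraries and triangles are high-share libraries. The groups overlap in both tissues, and MIA control female 5 is the highest library of each, at 7.49 in hippocampus and 7.22 in prefrontal cortex.

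The members moved together from library to library within groups. After group means were removed from log2(signal + 1), the 741 pairs of members in hippocampus had a median Pearson r of 0.38, with 93.4% positive, against a median of -0.0022 over pairs of all genes. The 780 pairs in prefrontal cortex had a median of 0.30, with 86.5% positive, against -0.0021. These correlations describe 48 libraries per tissue, and members of a library share its depth and dissection.

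Oasl2, which belongs to the oligoadenylate synthetase family, followed the mean of the other members most closely, with r = 0.91 in hippocampus and 0.86 in prefrontal cortex. Gbp3, a guanylate-binding GTPase, had 0.88 and 0.83, and Ifit1, which binds the caps of viral RNA, had 0.86 and 0.82 in the same tissues. Irf7, the transcription factor that amplifies interferon production, had 0.79 in hippocampus and 0.70 in prefrontal cortex. Usp18, the protease that removes ISG15 and restrains the receptor, had 0.78 in hippocampus and 0.73 in prefrontal cortex. At the other end, Stat2 had 0.26 and 0.23, Cmpk2, a mitochondrial nucleotide kinase, had 0.25 and 0.08, and Ly6e, a membrane protein that limits virus entry, had 0.05 and 0.18. In hippocampus 27 of 39 members exceeded 0.5, and in prefrontal cortex 22 of 40 did. Of the tested genes outside the list, 0.422% in hippocampus and 0.157% in prefrontal cortex exceeded 0.5 with the mean of all tested members. The 15 tested members with a response element in their window had a median r of 0.69 in hippocampus and 0.67 in prefrontal cortex, and the 15 with a window and no match had 0.52 and 0.40. Oasl2 and Irf7 had a window without a match, while Stat2 had a match. Ifit3 and Ifit3b, whose stretches are identical, both count among the members with a match. Whether a match goes with r was not tested.

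Outside the list, the genes most like the members in each tissue included several known interferon targets. In hippocampus they included Ddx58 (r = 0.80), the RIG-I sensor of viral RNA, Nlrc5 (0.76), an activator of MHC class I genes, Irgm2 (0.76), the class I genes H2-K1 (0.76) and H2-D1 (0.74), Iigp1 (0.74), Ifi204 (0.73), Trim30d (0.73) and Irgm1 (0.72). In prefrontal cortex they included Irgm1 (0.79), Iigp1 (0.74), Ddx58 (0.72), Ddx60 (0.68), Gm4951 (0.65), Slfn5 (0.62), Irgm2 (0.61), Igtp (0.61) and Tgtp1 (0.60). The mean of 16 microglia markers had r = 0.42 with the member mean in hippocampus and 0.40 in prefrontal cortex, that of 10 border macrophage markers 0.44 and 0.33, that of 6 astrocyte markers 0.35 and 0.42, that of 10 endothelial markers 0.39 and 0.42, and that of 7 neuron markers -0.37 and -0.28. The share of ribosomal protein and respiratory chain genes had r = 0.006 in hippocampus and -0.055 in prefrontal cortex. In bulk tissue, more cells of a type and more RNA per cell cannot be told apart.

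**Figure D2:**
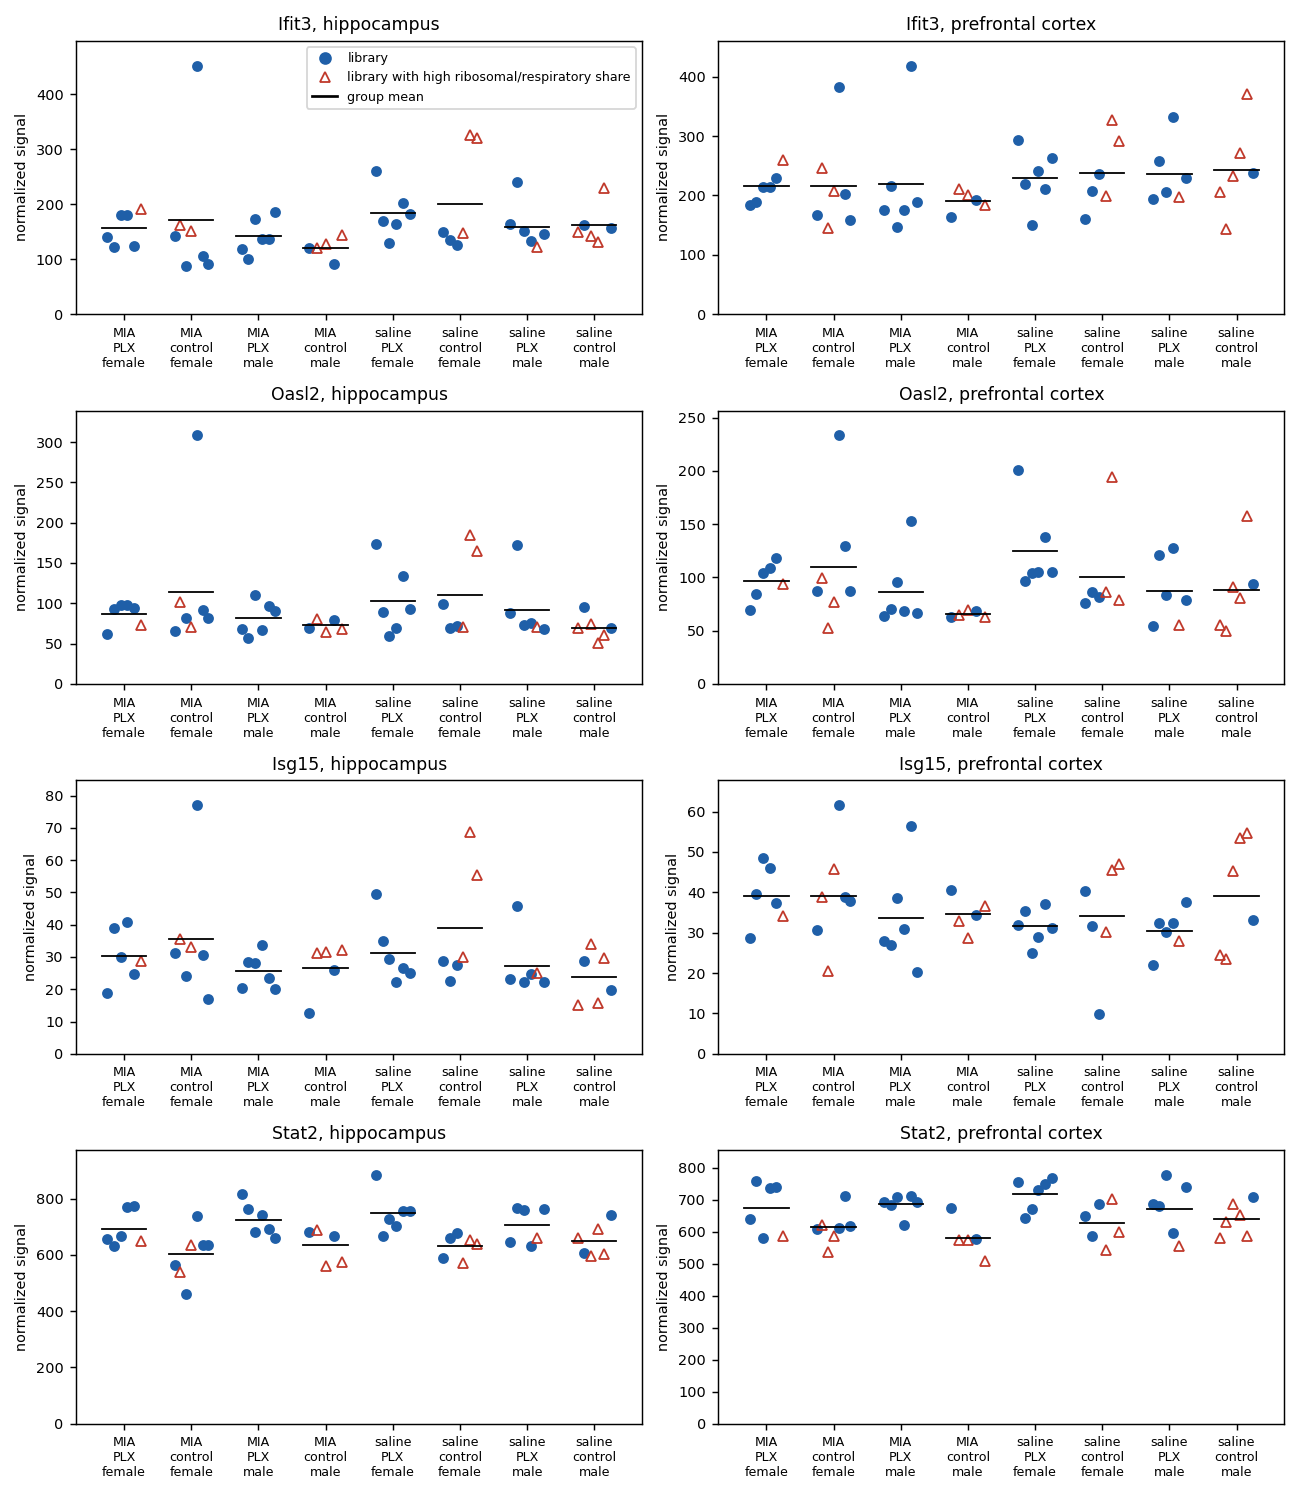
Normalized signal of Ifit3, Oasl2, Isg15 and Stat2 in each library, by group and tissue; points are libraries and triangles are high-share libraries. Single libraries stand above their groups for Ifit3, Oasl2 and Isg15, such as MIA control female 5 at 452 for Ifit3 in hippocampus.

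The highest values belonged to single libraries of several groups. In hippocampus MIA control female 5 had 452 for Ifit3, against 87.9 to 161 in the other 6 libraries of its group, and 308 for Oasl2, against 65.4 to 102. It had 210.3 for Gbp2, against 26.3 to 118, and 732 for Lgals3bp, against 332 to 494; GBP2 is a guanylate-binding GTPase and LGALS3BP a secreted partner of galectin-3. It was the highest of its group for 35 of 39 members, at a median of 1.72 times the median of the others. Ly6e was an exception, at 4044 inside the 3729 to 5158 of the others.

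The cortical library with the same label was the highest of its tissue by member mean. It had 382 for Ifit3, against 146 to 246 in the other 6 libraries, and 233 for Oasl2, against 52.3 to 129.8, and was the highest of its group for 23 of 40 members. Its summed signal of 10 border macrophage markers ranked 1 of 48 in hippocampus and 6 of 48 in prefrontal cortex, and that of 16 microglia markers ranked 6 and 7. The border macrophage markers include Siglec1, which also responds to interferon. The library ranked 1 and 8 for 6 hippocampal markers, 2 and 6 for 6 astrocyte markers, 3 and 26 for 6 markers of meningeal fibroblasts and 41 and 31 for 7 neocortical markers, in hippocampus and prefrontal cortex in that order. In the same order it ranked 9 and 21 for 6 oligodendrocyte markers, 16 and 22 for 6 choroid plexus markers and 18 and 9 for 10 endothelial markers. For 6 pericyte markers it ranked 20 and 10, and for 7 neuron markers 27 and 10. The part of these markers was not tested. Of 10 T and NK cell markers 1 was in the table, and of 8 monocyte and neutrophil markers 2, so these cells were not assessed here. Saline control female 5 was highest of its group for 21 members in hippocampus and 22 in prefrontal cortex, saline PLX male 2 for 25 and 16, and saline PLX female 1 for 18 and 24. MIA PLX male 5 was highest for 25 members in prefrontal cortex but for 6 in hippocampus. These labels, MIA control female 5 included, were named for their high member means. Counts over all genes to set beside theirs are not given here.

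Libraries with the same label in both tissues deviated together. Over the 48 labels, the mean deviation of the members in hippocampus correlated with that in prefrontal cortex at Pearson r = 0.64 and Spearman rho = 0.54, and at r = 0.52 over 46 labels without the 2 farthest ones. By gene, the median r between tissues was 0.49 over 39 members, of which 38 were positive, against 0.38 over all 19366 genes tested in both. An r over 0.5 was found for 41.0% of members and 36.0% of all genes. Irf9, the DNA-binding partner of the STAT proteins, had the highest value of the members at 0.80, and Ifit2, an RNA-binding relative of Ifit1, the lowest at -0.01. The median r between tissues over members fell to 0.36 with the high-share libraries left out. Without the library with the highest member mean it was 0.43. Medians over all genes are not given here for these settings, so whether members stayed above all genes was not tested. The sources used here do not say whether equal labels mark the same animal.

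**Figure D3:**
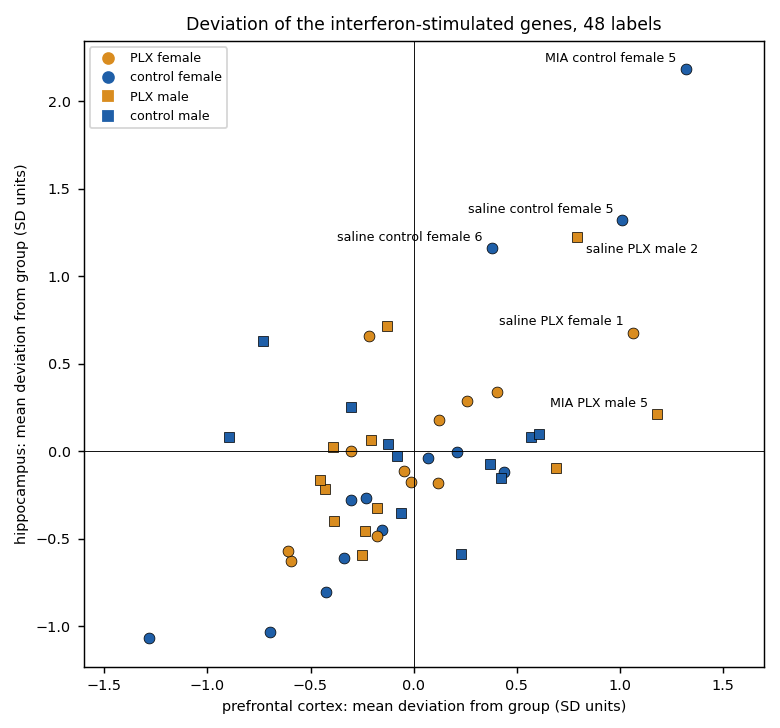
Mean deviation of the tested members from their group, in SD units, in hippocampus and in prefrontal cortex for 48 labels; each point is a label. Labels high in one tissue tend to be high in the other, and MIA control female 5 lies farthest out, at 2.18 in hippocampus and 1.32 in prefrontal cortex.

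Between tissues, about as many members differed as genes in general, with Herc6, Samd9l and the 4 IFIT genes among those lower and Irf1, Ifi27 and Ly6e among those higher in hippocampus. For this fit of all 96 libraries the signal was first divided by a common factor per library, 0.998 to 1.014, while levels are printed as deposited. In it 7 of 41 members were higher and 20 lower in hippocampus than in prefrontal cortex (limma, Benjamini-Hochberg adjusted p under 0.05 over all genes). That is 65.9% of members, close to the 65.8% of all 20598 genes, of which 34.8% were higher and 31% lower. The median difference was -0.17 for members and 0.02 for all genes, on the log2(signal + 1) scale used throughout, which understates changes of low genes. Markers of several cell types differed too, 10 of 10 for border macrophages and 7 of 7 for neurons being lower in hippocampus, 6 of 6 for oligodendrocytes, 5 of 6 for astrocytes and 5 of 6 for choroid plexus higher. Of 16 microglia markers 1 was higher and 4 were lower. The part of these cells in the member values was not tested.

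Mx1 and Zbp1 passed the signal filter of this fit mainly through prefrontal cortex, where they were higher. A signal of 10 was reached by Mx1 in 3 hippocampal and 29 cortical libraries and by Zbp1 in 1 and 4, so their lower values in hippocampus are given as a description (Mx1 -1.14 ± 0.13, Zbp1 -0.90 ± 0.19). With the filter required in each tissue, 7 of 39 members were higher and 18 lower, against 65.8% of all genes called.

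Herc6, the main mouse ligase for ISG15, differed most. Its lowest, median and highest signal was 93.6, 130.5 and 177 in hippocampus, against 335, 500.3 and 648 in prefrontal cortex, and the tissues did not overlap. The difference was -1.91 ± 0.04 (SE, limma adjusted p = 3.28e-58), with hippocampus higher for 0 of 48 labels. A share of 23.8% of its short stretches also belongs to the overlapping gene model Gm45193.

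Among the IFIT genes, Ifit2 had 188, 232 and 301 in hippocampus, against 283, 363 and 467 in prefrontal cortex, a difference of -0.65 ± 0.04. Ifit1 (-0.55 ± 0.10), Ifit3 (-0.50 ± 0.08) and Ifit3b (-0.37 ± 0.07) were lower too, each with hippocampus higher for 4 of 48 labels. Of the GTPases, Mx2 (-0.72 ± 0.08), Gbp7 (-0.27 ± 0.06) and Gbp3 (-0.19 ± 0.07) were lower. Samd9l, an inhibitor of translation, had 60.5, 119.8 and 219.8 in hippocampus, against 139, 237 and 359.5 in prefrontal cortex (-0.96 ± 0.06). Ifih1, the MDA5 sensor of long viral RNA, differed by -0.59 ± 0.05 and Cmpk2 by -0.42 ± 0.02. Rtp4, Rsad2, Sp100, Oas1a, Isg15, Ifi44 and Parp14 made up the rest, with differences between -0.39 for Rtp4 and -0.17 for Parp14. Leaving out 1 replicate number at a time, Gbp3 lost its call without number 4 (limma adjusted p = 0.0532), as did Isg15 (0.0504), Ifi44 without 3 (0.0539) or 4 (0.0835), Parp14 without 3 (0.0858) or 4 (0.069), and Oas1a without 1 (0.0546) or 3 (0.0845).

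Irf1, a transcription factor of interferon gamma responses, and Ifi27, a small membrane protein of mitochondria, led the genes higher in hippocampus. Irf1 had 137, 195 and 251 in hippocampus, against 95.6, 136 and 197 in prefrontal cortex, overlapping ranges that differed by 0.48 ± 0.04, with hippocampus higher for 47 of 48 labels. Ifi27 had 507, 709 and 1303 in hippocampus, against 404, 516 and 729.5 in prefrontal cortex (0.50 ± 0.05, higher for 48 of 48 labels). Ly6e (0.28 ± 0.04), the ubiquitin ligase gene Dtx3l (0.23 ± 0.04), the gene of its partner Parp9 (0.11 ± 0.05), the PKR kinase gene Eif2ak2 (0.13 ± 0.05) and Irf9 (0.10 ± 0.04) followed. Of these, Eif2ak2 lost its call without replicate number 2 (limma adjusted p = 0.052), Parp9 without number 1 (0.0764) and Irf9 without number 1 (0.103) or 6 (0.107). The 14 members not called were Bst2, Usp18, Stat2, Irf7, Dhx58, Trim25, Trim30a, Oasl2, Oas2, Lgals3bp, Xaf1, Gbp2, Ifi35 and Ifitm3, with differences between -0.19 for Usp18 and 0.18 for Bst2. With the label as a block shared by the tissues, Bst2 (adjusted p = 0.0202) and Usp18 (0.0422) were called as well by limma. In that fit 72.7% of all genes were called.

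**Figure D4:**
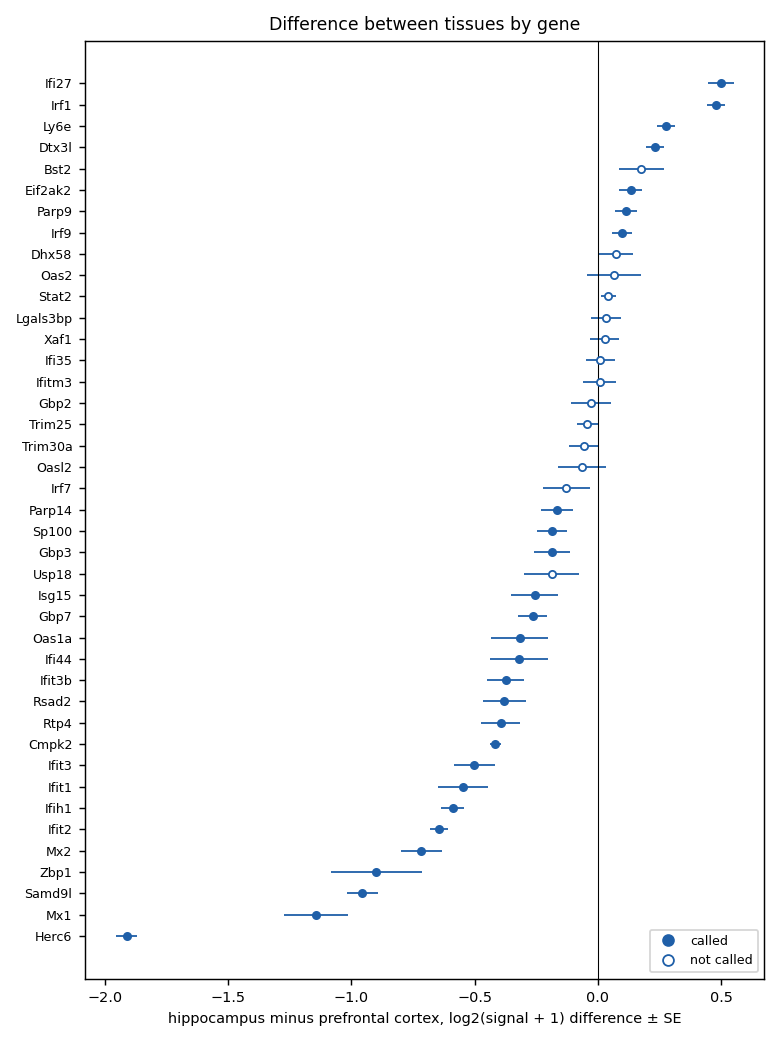
Hippocampus minus prefrontal cortex difference in log2(signal + 1), with its SE, for the 41 tested members. Herc6 lies farthest out at -1.91, and Ifi27 is the highest at 0.50.

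Under PLX, few members passed the test, and in smaller share than all genes. Averaged over sexes and prenatal treatments, Stat2, Herc6 and Oas2 were higher and Cmpk2 lower in PLX than in control libraries of hippocampus, 4 of 39 members (10.3%), against 40% of all 19938 genes. In prefrontal cortex 6 of 40 (15%) were called, against 37.8% of 19841 genes: Stat2, Samd9l, Lgals3bp and Eif2ak2 were higher, and Irf1 and Ly6e lower. Members had wider standard errors, with a median of 0.10 in hippocampus and 0.09 in prefrontal cortex, against 0.06 and 0.06 over all genes. With the covariate for high-share libraries 0 members were called by limma in either tissue, against 0.376% and 0.242% of all genes, and 3 members in hippocampus and 2 in prefrontal cortex had an unadjusted p under 0.05, against 14.8% and 10.9% of all genes. For most of these calls, PLX and a low share cannot be told apart.

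Stat2 was called in both tissues. In hippocampus its lowest, median and highest signal was 631, 714 and 883 in the 24 PLX libraries, against 459.9, 637 and 740.4 in the 24 control libraries. The ranges overlapped, and PLX was higher in 4 of 4 pairs of groups. The difference was 0.19 ± 0.04 (SE, limma adjusted p = 0.00112), and 0.16 ± 0.05 (adjusted p = 0.0914) with the covariate. In prefrontal cortex it had 556, 694 and 777 in PLX libraries, against 508, 610.5 and 710.3 in control libraries, again overlapping and higher in 4 of 4 pairs. There the difference was 0.16 ± 0.04 (adjusted p = 0.00292), and 0.08 ± 0.04 (adjusted p = 0.52) with the covariate.

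The other hippocampal calls lay nearer the threshold. Herc6 had 103, 140.2 and 177 in PLX libraries, against 93.6, 122 and 177 in control libraries (0.18 ± 0.07, limma adjusted p = 0.0328). Oas2, an RNA-activated synthetase, had 8.80, 18.7 and 31.8 in PLX libraries, against 8.47, 15.2 and 27.1 in control libraries (0.33 ± 0.13, adjusted p = 0.0365). Cmpk2 had 421, 538 and 602 in PLX libraries, against 491, 574 and 639 in control libraries (-0.07 ± 0.03, adjusted p = 0.0493). PLX and control ranges overlapped widely for all 3 genes. With the covariate the differences were 0.07 ± 0.07, 0.16 ± 0.14 and -0.06 ± 0.03 in that order. Leaving out 1 library at a time, Cmpk2 kept its call in 16 of 48 fits, Oas2 in 35 and Herc6 in 44. Herc6 lost it without saline control female 3 (adjusted p = 0.0508), saline control female 4 (0.0586), saline control male 3 (0.0553) or saline PLX male 2 (0.0513). The count of called members was 1 without saline control female 4 and 6 without MIA control male 5. Over the 48 fits 35.2 to 43.9% of all genes were called.

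In prefrontal cortex Irf1 had 95.6, 131 and 152 in PLX libraries, against 111, 153 and 197 in control libraries. The difference was -0.22 ± 0.06 (limma adjusted p = 0.00279), with PLX higher in 0 of 4 pairs of groups, and -0.12 ± 0.06 with the covariate. The 14 high-share control libraries had a median of 159, and the other 10 control libraries one of 130.4, close to that of PLX. Samd9l had 173, 274 and 332 in PLX libraries, against 139, 204 and 359.5 in control libraries (0.27 ± 0.08, adjusted p = 0.00685). With the covariate it differed by 0.05 ± 0.07, and its median was 192 in high-share and 269 in other control libraries.

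Lgals3bp differed by about as much with the covariate as without. It had 308, 406 and 530.1 in PLX libraries, against 278, 347 and 497 in control libraries, a difference of 0.19 ± 0.06 (limma adjusted p = 0.00881), and 0.18 ± 0.07 (adjusted p = 0.286) with the covariate. The differences of Ly6e and Eif2ak2 shrank to near zero with the covariate, their sign changing. Ly6e had 2527, 3159 and 3889 in PLX libraries, against 2492, 3592 and 4787 in control libraries, and differed by -0.16 ± 0.05 (adjusted p = 0.0199) without and 0.01 ± 0.05 with the covariate. Eif2ak2 had 153, 207 and 252 in PLX libraries, against 111, 183 and 274 in control libraries, and differed by 0.18 ± 0.07 (adjusted p = 0.0276) without and -0.01 ± 0.06 with it. Eif2ak2 also lost its call without MIA control male 3 (adjusted p = 0.055) or MIA control male 4 (0.0522). The cortical count of called members was 5 without MIA control male 3 and 10 without saline control male 6. Over the 48 cortical fits 32.3 to 42.8% of all genes were called.

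**Figure D5:**
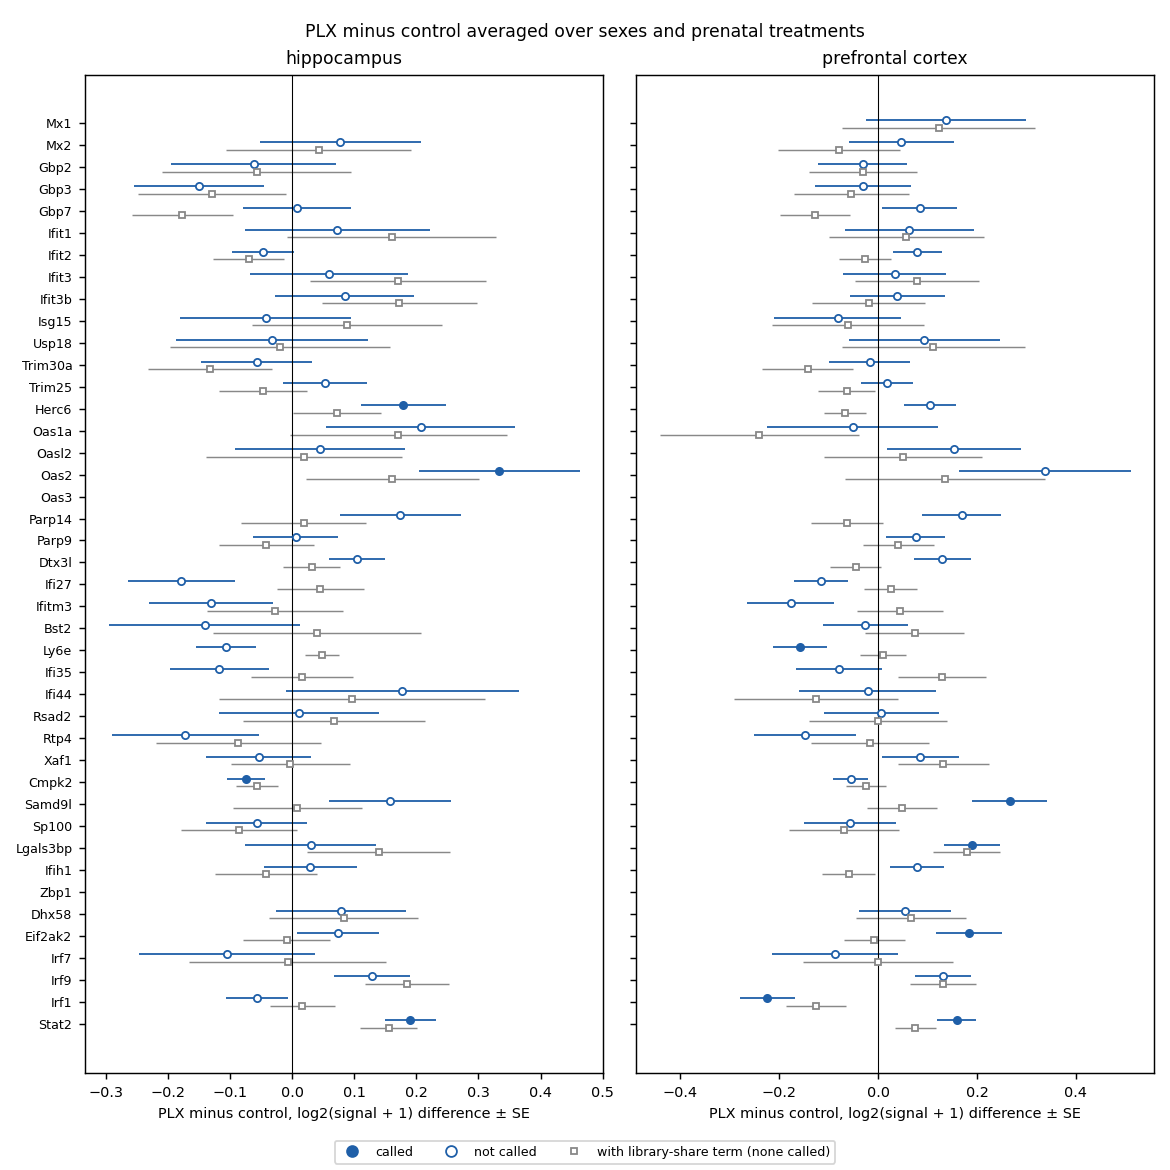
PLX minus control difference in log2(signal + 1), averaged over sexes and prenatal treatments, with its SE, for each tested member in hippocampus and prefrontal cortex, without and with the covariate for high-share libraries. The called differences run between -0.07 for Cmpk2 and 0.33 for Oas2 in hippocampus, and between -0.22 for Irf1 and 0.27 for Samd9l in prefrontal cortex.

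The effectors and regulators Isg15, Ifit1, Ifit3, Irf7, Oasl2, Usp18 and Bst2 were not called for averaged PLX in either tissue. In hippocampus Isg15 had 19.0, 25.8 and 49.7 in PLX libraries, against 12.5, 29.8 and 77.0 in control libraries (-0.04 ± 0.14). Ifit3 had 99.7, 157 and 259 in PLX libraries, against 87.9, 144 and 452 in control libraries (0.06 ± 0.13). Oasl2 had 56.7, 88.4 and 174 in PLX libraries, against 50.2, 73.2 and 308 in control libraries (0.04 ± 0.14). The ranges overlapped for each, and MIA control female 5 held the highest control value of all 3. Hippocampal differences were 0.07 ± 0.15 for Ifit1, -0.10 ± 0.14 for Irf7, -0.03 ± 0.16 for Usp18 and -0.14 ± 0.15 for Bst2, which tethers virions to the cell. In prefrontal cortex they were -0.08 ± 0.13 for Isg15, 0.06 ± 0.13 for Ifit1, 0.03 ± 0.10 for Ifit3, -0.09 ± 0.13 for Irf7, 0.15 ± 0.14 for Oasl2, 0.09 ± 0.15 for Usp18 and -0.03 ± 0.09 for Bst2. The lowest adjusted p among these was 0.381 (limma).

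Within single sex and prenatal groups, limma called 0 members for PLX in all 8 comparisons. In hippocampus all genes were called at 0.0301% in saline females, 0.00502% in MIA females, 0.0251% in saline males and 0.00502% in MIA males. In prefrontal cortex the shares were 0.0252%, 0.0252%, 0.338% and 0.0202% in that order. In hippocampus the members with an unadjusted p under 0.05 numbered 4 (22.7% of all genes) in saline females, 1 (7.71% of all genes) in MIA females, 0 (20.2% of all genes) in saline males and 2 (28.2% of all genes) in MIA males. The cortical numbers were 2 (17.8% of all genes) in saline females, 1 (7.59% of all genes) in MIA females, 6 (27.8% of all genes) in saline males and 6 (24.9% of all genes) in MIA males. edgeR on recovered reads called 0 members in all 8, and DESeq2 called 2 in cortical saline males and 0 in the other 7. The share of all genes that DESeq2 called in cortical saline males is not given here.

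The smallest p-values recurred for a few genes. In hippocampus they belonged to Stat2 (0.24 ± 0.08), Cmpk2 and Rtp4 in saline females, Stat2 (0.21 ± 0.08), Xaf1 and Eif2ak2 in MIA females, Parp14 (0.38 ± 0.19), Samd9l and Eif2ak2 in saline males, and Dtx3l (0.22 ± 0.09), Stat2 and Eif2ak2 in MIA males. In prefrontal cortex they belonged to Stat2 (0.20 ± 0.08), Irf1 and Ly6e in saline females, Trim30a (-0.32 ± 0.16), Lgals3bp and Ifitm3 in MIA females, Irf1 (-0.39 ± 0.11), Samd9l (0.54 ± 0.15) and Eif2ak2 in saline males, and Stat2 (0.24 ± 0.08), Lgals3bp and Eif2ak2 in MIA males. Without saline control male 6 there were 6 called members in cortical saline males, and without MIA control male 5 there were 2 in cortical MIA males. Leaving out 1 library at a time, 0.0303 to 19.3% of all genes were called in cortical saline males. In cortical MIA males 0.0101 to 10.1% were.

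Other interferon pathway genes were called under PLX in both directions, nearly all without a call once the covariate was added. Their counts stand against the 40% of all genes called in either direction in hippocampus and 37.8% in prefrontal cortex. Of 6 ligand and receptor genes 4 fell in hippocampus, the receptor subunit genes Ifngr1 (-0.11 ± 0.04), Ifnar2 (-0.14 ± 0.05), Il10rb (-0.16 ± 0.06) and Ifngr2 (-0.10 ± 0.04), and 0 of 6 passed in prefrontal cortex. Of 11 signal transducers 4 rose and 1 fell in each tissue, among them the kinase genes Tyk2 (0.27 ± 0.05) in hippocampus and Jak2 (0.17 ± 0.04) in prefrontal cortex. Of the sensors and adaptors 5 of 21 rose and 3 fell in hippocampus, and 4 of 22 rose and 1 fell in prefrontal cortex. Traf3, a signalling adaptor, rose in both (0.27 ± 0.05 in hippocampus and 0.28 ± 0.06 in prefrontal cortex), as did Adar, the RNA editing enzyme (0.21 ± 0.04 and 0.21 ± 0.05).

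Of 15 feedback inhibitors 3 rose in hippocampus, and 4 rose and 1 fell in prefrontal cortex, with the phosphatase gene Ptpn2 at 0.20 ± 0.04 in hippocampus and 0.22 ± 0.04 in prefrontal cortex. Of 65 tested interferon-stimulated genes outside the 42, 9 rose and 11 fell in hippocampus, and 10 rose and 10 fell in prefrontal cortex, a smaller share than that of all genes in each tissue. The antiviral helicase gene Znfx1 rose (0.18 ± 0.03) and the proteasome activator gene Psme1 fell (-0.23 ± 0.05) in hippocampus, while the DNA-sensing family members Ifi204 (0.80 ± 0.16) and Ifi209 (1.08 ± 0.22) rose in prefrontal cortex. With the covariate, 1 gene of these 5 lists was called in hippocampus and 1 in prefrontal cortex, which was Ifi209.

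Some markers of resident macrophages differed in the same comparison. Of 16 microglia markers 8 fell in hippocampus and 9 in prefrontal cortex, against 40% and 37.8% of all genes called in either direction. Fcrls, which had the smallest p-value of them, fell (-0.47 ± 0.05 in hippocampus and -0.56 ± 0.05 in prefrontal cortex). With the covariate 3 fell and 1 rose in hippocampus and 6 fell and 1 rose in prefrontal cortex, against 0.376% and 0.242% of all genes. Their summed signal in hippocampus ran between 11028 and 13682 in PLX libraries, against 11117 and 18174 in control libraries. In prefrontal cortex it ran between 11133 and 14326 in PLX libraries, against 12012 and 16956 in control libraries, so the ranges overlapped in both. Of 10 border macrophage markers 1 rose and 4 fell in hippocampus, and 4 rose and 4 fell in prefrontal cortex. Cd163 fell (-1.28 ± 0.15 in hippocampus and -0.54 ± 0.09 in prefrontal cortex), and Siglec1, a marker that also responds to interferon, rose (0.99 ± 0.21 and 1.23 ± 0.17). The part of these cells in the member values was not tested.

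After MIA no member differed from saline by the test. Averaged over sexes and inhibitor, limma called 0 of 39 members in hippocampus and 0 of 40 in prefrontal cortex, against 0% of all genes in each, and edgeR and DESeq2 also called 0 members. An unadjusted p under 0.05 was reached by 2 members in hippocampus, against 4.76% of all genes, and by 1 in prefrontal cortex, against 5.96%. The median member difference was -0.05 in hippocampus and -0.03 in prefrontal cortex. Leaving out 1 library at a time it ran between -0.06 without MIA control female 5 and -0.02 without saline control female 5 in hippocampus, and between -0.05 without MIA control male 5 and -0.01 without saline control male 5 in prefrontal cortex.

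Rsad2, the viperin enzyme that makes a chain-terminating nucleotide, and Ifit3 had the smallest p-values in hippocampus, in opposite directions. Rsad2 had 20.8, 33.5 and 52.6 in the 24 MIA libraries, against 12.2, 24.3 and 54.0 in the 24 saline libraries (0.34 ± 0.13, limma adjusted p = 0.898), with MIA higher in 4 of 4 pairs of groups. Ifit3 had 87.9, 136 and 452 in MIA libraries, against 121, 153 and 325 in saline libraries (-0.28 ± 0.13, adjusted p = 0.997), with MIA higher in 0 of 4 pairs. MIA and saline ranges overlapped for both genes. Cmpk2, a neighbour of Rsad2 on chromosome 12, differed by 0.06 ± 0.03 in hippocampus and 0.08 ± 0.03 (adjusted p = 0.804) in prefrontal cortex, where it had the smallest p of the members. In prefrontal cortex Ifit3 had 146, 197 and 419 in MIA libraries, against 143, 231 and 371 in saline libraries (-0.18 ± 0.10), with MIA higher in 0 of 4 pairs, and Irf1 differed by -0.09 ± 0.06.

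The other effectors and regulators lay within about 2 standard errors of zero. In hippocampus Isg15 had 12.5, 29.4 and 77.0 in MIA libraries, against 15.1, 27.1 and 68.8 in saline libraries (-0.02 ± 0.14), overlapping over most of the range. Hippocampal differences were -0.10 ± 0.15 for Ifit1, -0.06 ± 0.14 for Irf7, -0.07 ± 0.14 for Oasl2, -0.05 ± 0.04 for Stat2, -0.14 ± 0.16 for Usp18 and -0.14 ± 0.15 for Bst2. In prefrontal cortex they were 0.14 ± 0.13 for Isg15, -0.02 ± 0.13 for Ifit1, 0.01 ± 0.13 for Irf7, -0.15 ± 0.14 for Oasl2, -0.06 ± 0.04 for Stat2, -0.18 ± 0.15 for Usp18 and 0.07 ± 0.09 for Bst2. No gene of the 5 pathway lists was called for MIA in either tissue.

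In single groups limma called 0 members for MIA, against 0.00502% of all genes in hippocampal control females and 0% in the other 7 comparisons. Members with an unadjusted p under 0.05 numbered 2 (6.41% of all genes) in hippocampal control females, 0 (2.38% of all genes) in control males, 1 (2.74% of all genes) in PLX females and 0 (2.47% of all genes) in PLX males. In prefrontal cortex they numbered 1 (5% of all genes) in control females, 0 (2.56% of all genes) in control males, 1 (5.35% of all genes) in PLX females and 0 (2.89% of all genes) in PLX males. In hippocampus the smallest p-values belonged to Rsad2 (0.72 ± 0.25), Irf1 and Trim25 in control females, Ifih1 (0.30 ± 0.16), Ifit3 and Cmpk2 in control males, Oas1a (-0.87 ± 0.30), Cmpk2 and Rsad2 in PLX females, and Bst2 (-0.39 ± 0.31), Ly6e and Usp18 in PLX males. In prefrontal cortex they belonged to Irf1 (-0.23 ± 0.11), Cmpk2 and Ifih1 in control females, Ifit3b (-0.40 ± 0.20), Lgals3bp and Stat2 in control males, Herc6 (-0.25 ± 0.11), Ifit2 and Mx1 in PLX females, and Oas1a (-0.65 ± 0.34), Dhx58 and Irf1 in PLX males. In control females the median member difference was 0.01 in hippocampus and 0.05 in prefrontal cortex. Leaving out 1 library at a time it ran between -0.08 without MIA control female 5 and 0.12 without saline control female 5 in hippocampus, and between -0.02 without MIA control female 5 and 0.10 without MIA control female 3 in prefrontal cortex.

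The interaction of MIA and PLX, which asks whether the inhibitor acts differently after immune activation, gave 0 called members by limma, against 0% of all genes in each tissue. No member reached an unadjusted p under 0.05, against 2.04% of all genes in hippocampus and 4.98% in prefrontal cortex. The smallest p-values were those of Ifih1 (-0.23 ± 0.15), Oas1a (-0.45 ± 0.31) and Irf1 (0.13 ± 0.10) in hippocampus, and of Irf1 (0.22 ± 0.11), Trim30a (-0.30 ± 0.16) and Lgals3bp (0.16 ± 0.11) in prefrontal cortex. The difference of the MIA effect between females and males gave 0 called and 0 members at an unadjusted p under 0.05 (limma), against 0.00502% of all genes called in hippocampus and 0% in prefrontal cortex, and 4.08% and 2.39% at the unadjusted p. Ifi44 (0.62 ± 0.38), Rsad2 (0.42 ± 0.26) and Oas1a (-0.46 ± 0.31) had the smallest p-values in hippocampus, and Bst2 (0.27 ± 0.17), Irf1 (-0.16 ± 0.11) and Samd9l (-0.19 ± 0.15) in prefrontal cortex.

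The PLX effect of most members was lower in females than in males, without a call. The female minus male difference of the PLX effect was negative for 30 of 39 members in hippocampus, with a median of -0.19, and for 28 of 40 in prefrontal cortex, with a median of -0.15. Of all genes 49.0% and 50.6% were positive. Since members vary together from library to library, their signs are not independent observations. Limma called 0 members and 0% of all genes in each tissue, and 2 members in hippocampus and 5 in prefrontal cortex had an unadjusted p under 0.05, against 4.94% and 4.54% of all genes. Eif2ak2 (-0.31 ± 0.13), Rtp4, a chaperone of receptors (-0.48 ± 0.24), and Xaf1, an apoptosis factor (-0.30 ± 0.17), had the smallest p-values in hippocampus. Gbp7 (-0.38 ± 0.15), Ifi44 (-0.69 ± 0.28) and Samd9l (-0.37 ± 0.15) had them in prefrontal cortex. Without MIA control female 5 the hippocampal median was -0.11.

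Most members had higher values in females than in males, again without a call. Averaged over prenatal treatment and inhibitor, 34 of 39 members were higher in females in hippocampus, with a median of 0.15, and 35 of 40 in prefrontal cortex, with a median of 0.08. Of all genes 49.1% were higher in females in hippocampus and 47.9% in prefrontal cortex. Limma called 0 members in each tissue, against 0.246% of all genes in hippocampus and 0.141% in prefrontal cortex. An unadjusted p under 0.05 was reached by 13 members in hippocampus, against 7.85% of all genes, and by 6 in prefrontal cortex, against 6.05%, all of them higher in females. Members vary together, so these counts are not independent observations. Without MIA control female 5 the medians were 0.11 in hippocampus and 0.06 in prefrontal cortex.

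Gbp3 and Oas1a had the smallest p-values in hippocampus. Gbp3 had 76.7, 108 and 268 in the 25 female libraries, against 61.0, 90.5 and 159.8 in the 23 male libraries (0.35 ± 0.10, limma adjusted p = 0.201), with females higher in 4 of 4 pairs of groups. Oas1a had 4.97, 10.9 and 23.0 in females, against 3.60, 7.46 and 13.8 in males (0.52 ± 0.15, adjusted p = 0.201), and Ifih1 differed by 0.21 ± 0.07. Female and male ranges overlapped for both genes. In prefrontal cortex Lgals3bp had 278, 403 and 530.1 in females, against 279, 349 and 448 in males (0.16 ± 0.06), Oasl2 had 52.3, 96.7 and 233 in females, against 49.3, 69.4 and 158 in males (0.39 ± 0.14), and Trim25, a ubiquitin ligase, differed by 0.12 ± 0.05.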

How the data were processed

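RNA from 96 mouse hippocampus and prefrontal cortex libraries was made into stranded mRNA libraries, per the labels' protocols. The deposited values are normalized signal, gene read counts that the authors divided by a factor per library. Per the submitters' processing notes, Trimmomatic and STAR 2.6.1d were used with GRCm39; the counting tool, its strand setting and the normalization method are not given in the sources used here.

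Groups came from the labels, and 0 columns were unmapped. Signal was analysed as log2(signal + 1) with limma 3.58.1 in R 4.3.3, with genes kept where 5 or more libraries reached a signal of 10, with 1 mean per group and contrasts between groups, within each tissue, and over both tissues for the tissue difference, after division by 1 median-of-ratios factor per library over both tissues. Adjusted p-values (Benjamini-Hochberg) cover all tested genes, with a threshold of 0.05. Whole reads were recovered from the deposited signal in 96 of 96 libraries (100% of values whole within 0.001) and gave 22234569 to 26689351 reads per library. On these reads edgeR 4.0.16 called 7891 genes in hippocampus and 7425 in prefrontal cortex for averaged PLX, and DESeq2 1.42.0 called 8076 and 7628. Other alternatives changed the pseudocount, the filter and the scaling, left out libraries, or added array weights, covariates or replicate blocks. The fits were tested on simulated data. Correlations used deviations from group means.

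The members and the gene lists were chosen with earlier results of these data known. Named genes are every called member, up to the 10 smallest p-values per direction; where none is called, the 3 smallest; 8 fixed genes (Isg15, Ifit1, Ifit3, Irf7, Oasl2, Stat2, Usp18, Bst2) for averaged PLX and MIA; of each pathway list, called genes among the 5 smallest p-values; and the 10 most alike other genes per tissue, of which those not reported here are left out. Marker genes and members beyond these were named after their values were seen.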

Additional observations from a re-analysis of the deposited data

Results flagged for a closer look

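In each group of 5 to 7 libraries, the highest and the lowest value of the member mean and of 8 members were set against the rest by Dixon's gap test. Of 144 sets, 26 (18.1%) had a library far from the others, where chance gives about 1 in 20; members vary together, so the sets are not independent. In all but 1 of the 26 the distant library was the highest. The 8 members were tested as signal and not on the log2 scale, and the 1 in 20 holds for normally distributed values. Whether the scale shaped the number or the side of the distant values was not tested.

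MIA control female 5 in hippocampus stood above its group for the mean of the members at 7.49 (others 6.37 to 6.75) on the log2 scale. Its signal was also apart for Isg15 77.0 (others 17.1 to 35.6), Ifit1 199 (others 33.1 to 72.5), Ifit3 452 (others 87.9 to 161), Irf7 129 (others 32.1 to 58.0), Oasl2 308 (others 65.4 to 102), Usp18 90.6 (others 16.6 to 31.1) and Bst2 168 (others 46.2 to 80.0). In prefrontal cortex the library of that label was apart for Ifit1 179 (others 49.2 to 94.1), Ifit3 382 (others 146 to 246), Oasl2 233 (others 52.3 to 129.8) and Usp18 61.6 (others 18.5 to 30.7).

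Saline PLX male 2 in hippocampus stood above its group for the member mean at 7.03 (others 6.39 to 6.63), and for Isg15 45.7 (others 22.1 to 25.1), Ifit3 239.7 (others 121 to 164), Irf7 58.1 (others 29.9 to 38.9) and Oasl2 172 (others 67.9 to 87.8). Saline control male 5 in hippocampus had the distant value of Ifit3 at 229 (others 132 to 161). MIA PLX male 5 in prefrontal cortex was apart for the member mean at 7.13 (others 6.59 to 6.67), and for Ifit1 217 (others 62.5 to 81.5), Ifit3 419 (others 146 to 215) and Oasl2 153 (others 64.0 to 96.2). MIA PLX male 4 in prefrontal cortex had the one low value, for Stat2 at 622 (others 684 to 710.3). Saline PLX female 1 in prefrontal cortex was apart for the member mean at 7.11 (others 6.60 to 6.78) and for Bst2 at 84.4 (others 42.01 to 56.2). Saline control female 5 in prefrontal cortex was apart for Oasl2 at 194 (others 76.4 to 86.6). The cause of these values was not tested.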

How the results depend on the processing

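Pseudocount, filter, TMM scaling, edgeR and the replicate number as a factor kept each count of called members within 1.5 times. DESeq2 did so too apart from cortical saline males (2 members under PLX, against 0), where its share of all genes is not given here. The covariate for high-share libraries, leaving those libraries out, and a covariate for labels high in both tissues (added after the data were seen) each gave 0 members for averaged PLX in both tissues. Under the first 2 of these, cortical Ly6e differed by 0.010 and 0.048, and cortical Eif2ak2 by -0.0073 and -0.084. Array weights, which trust variable libraries less, gave more calls. Averaged PLX then had 9 in hippocampus and 13 in prefrontal cortex. In hippocampus PLX had 5 in saline females, 7 in saline males and 6 in MIA males. In prefrontal cortex it had 10 in saline males and 13 in MIA males. The cortical sex difference of the PLX effect had 7, and female minus male had 3 in hippocampus and 1 in prefrontal cortex. The shares of all genes called under these weights are not given here, so these counts cannot be set against them. Leaving out 1 library at a time, called members for averaged PLX ran between 1 and 6 in hippocampus, against 35.2 to 43.9% of all genes. In prefrontal cortex they ran between 5 and 10, against 32.3 to 42.8%. For PLX in cortical saline males they ran between 0 and 6, against 0.0303 to 19.3% of all genes. In cortical MIA males they ran between 0 and 2, against 0.0101 to 10.1%. The cause of these shifts was not tested.

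Equal labels in both tissues deviated with a median r of 0.24, over 0.1 for 42 of 48 labels, and 20 of 48 correlated best with their own label, a hint from the data only. With the label as replicate block, 29 members differed between tissues, against 27 without it, adding Bst2 and Usp18; with the filter on low values required in each tissue (added after the data were seen) 25 of 39 did; without one replicate number they ran between 22 and 27. Within a tissue, the replicate block gave 3 members for averaged PLX in hippocampus, where Cmpk2 was no longer called (adjusted p = 0.0549), and 6 in prefrontal cortex.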
